A study of Mus musculus with 30 samples.

Results

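Ribosome biogenesis genes were followed through 2 routes of mouse fibroblast reprogramming. They were chosen by name, as 40 genes whose proteins work in the nucleolus or in ribosome assembly, and all 40 were found among the 55401 gene identifiers of the tables. The 40 are 3 subunits of RNA polymerase I, 5 proteins of the box C/D and U3 small nucleolar ribonucleoproteins (snoRNPs) with their chaperone, 5 abundant or regulatory nucleolar proteins, 16 factors of the small-subunit processome and the 40S subunit, and 11 factors of the 60S subunit. They lie on 15 chromosomes.

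RNA-seq of total RNA was quantified as FPKM, fragments per kilobase of gene scaled to the mapped fragments, in 30 libraries that form 15 groups of 2. In the 4-factor arm, mouse embryonic fibroblasts (MEFs) of genotype 129XOG2 at passages 1 to 3 received lentiviruses for Oct4, Sox2, Klf4 and c-Myc. They were taken at days 0, 2, 4 and 7 and as induced pluripotent stem cells (iPSCs). Doxycycline at 2 ug/ml is listed for days 2, 4 and 7, and not for day 0 or the iPSCs. The chemical arm used CF1 MEFs, kept in a medium of small molecules with no added gene and taken at days 0, 4, 8 and 12 and as iPSCs. In a removal experiment, chemically treated MEFs of genotype 129XOG2 were collected at day 12 after CHIR, PD, VC or WS had been left out from day 8 to day 12, beside a group labelled CT, whose label alone names no removal. CT is therefore taken as the complete medium; CT, VC and WS are not spelled out in the labels. Both kinds of iPSC were grown on feeder cells with LIF, 3 uM CHIR99021 (a GSK3 inhibitor) and 0.2 uM PD0325901 (a MEK inhibitor). Nothing in the labels says whether the 2 libraries of a group were separate cultures; the p-values then reflect no more than the spread between these libraries, which may be technical. In bulk RNA, fewer cells of a type and less RNA per cell cannot be told apart, and FPKM gives shares of the RNA, not amounts per cell.

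Ribosomes are built in the nucleolus, where RNA polymerase I transcribes the long precursor of the ribosomal RNAs. The precursor is cut, modified by snoRNPs, folded and joined with ribosomal proteins by assembly factors that leave before the subunit is finished. Myc is a transcription factor that pairs with Max, binds the E-box CACGTG and is known for raising polymerase I activity and the assembly genes with it, whereas the Mxd proteins and Mxi1 compete with it for Max. Pluripotent stem cells divide fast and are known for large nucleoli.

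Promoters are shown because the E-box is the sequence through which Myc is known to act. RefSeq promoter windows of build GRCm38.p6, from 250 bases before to 50 bases after the start, were found for 34 of the 40 genes. Bop1, Fbl, Npm1, Rrp12, Rrs1 and Utp6 had no entry. A gene with several start sites was counted once, with the motif if any of its windows held it. CACGTG, which is its own reverse complement, occurred in 9 of the 34 genes (26.5%). Of all genes tested that had a window, 11.8% held it in the 4-factor arm, 11.7% in the chemical arm and 12% in the removal experiment. The share was 24.5% in other 40S and 60S assembly factors, 30% in cytosolic translation factors and 36.8% in other growth genes known as Myc targets. It was 16.7% in other polymerase I genes, 10.3% and 7.32% in cytosolic and mitochondrial ribosomal proteins, 6.25% in replication and mitosis genes and 0% in other snoRNP genes. The motif lay before the start in Imp4, Nop2 and Utp18 and after it in Mybbp1a, Pes1, Tsr1, Utp20, Utp4 and Wdr43. The 3 promoters with the motif before the start are given 5′ to 3′ with the motif in capitals. Nop56 is given as a gene that fell far in the chemical arm and has no such motif, and Imp3 as the member with the smallest difference at chemical day 12; stretches that overlap an annotated untranslated region were left out.
Nop2, chr6:125131633-125131882, plus strand, CACGTG beginning 60 bases before the start: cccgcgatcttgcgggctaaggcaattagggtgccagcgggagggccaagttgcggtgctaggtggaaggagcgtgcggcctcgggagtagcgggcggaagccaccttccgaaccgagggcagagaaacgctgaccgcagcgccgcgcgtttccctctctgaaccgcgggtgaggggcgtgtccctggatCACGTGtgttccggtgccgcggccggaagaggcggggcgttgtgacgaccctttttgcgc
Utp18, chr11:93885767-93885851, minus strand, CACGTG beginning 20 bases before the start: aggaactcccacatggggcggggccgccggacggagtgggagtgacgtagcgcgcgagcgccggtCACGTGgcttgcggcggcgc
Imp4, chr1:34439673-34439828, plus strand, CACGTG beginning 121 bases before the start: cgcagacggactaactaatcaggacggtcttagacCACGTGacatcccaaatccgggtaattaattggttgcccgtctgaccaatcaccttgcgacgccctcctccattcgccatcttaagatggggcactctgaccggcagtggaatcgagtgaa
Nop56, chr2:130274162-130274411, plus strand, no CACGTG: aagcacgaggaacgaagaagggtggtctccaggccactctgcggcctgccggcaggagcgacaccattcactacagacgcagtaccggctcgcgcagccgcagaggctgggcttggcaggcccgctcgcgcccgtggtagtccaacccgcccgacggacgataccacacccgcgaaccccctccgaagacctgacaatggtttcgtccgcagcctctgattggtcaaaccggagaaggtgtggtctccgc
Imp3, chr9:56937250-56937474, plus strand, bases 250 to 26 before the start, no CACGTG: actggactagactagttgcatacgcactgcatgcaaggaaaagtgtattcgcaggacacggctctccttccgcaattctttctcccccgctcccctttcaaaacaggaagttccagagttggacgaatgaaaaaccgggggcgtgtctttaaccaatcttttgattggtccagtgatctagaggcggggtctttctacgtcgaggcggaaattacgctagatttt
Median changes against day 0 of the genes with and without the motif lay near each other at the last intermediates and in iPSCs, and further apart at earlier days. In the chemical arm at day 12, the 9 genes with CACGTG had a median log2 fold change of -1.62 against day 0, and the 25 without it -1.52; 7 and 20 of them were called lower. At day 7 of the 4-factor arm both medians were -0.81. In 4-factor iPSCs the medians were 1.36 and 1.40, and in chemical iPSCs 0.76 and 0.73. At the earlier days the genes with the motif had the lower median. With and without it, the medians were 0.45 and 0.56 at 4-factor day 2 and -0.08 and 0.28 at day 4. They were -0.98 and -0.74 at chemical day 4 and -1.35 and -1.06 at day 8. These are descriptions with no test.

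The low FPKM values stepped in units that imply 3.45e+07 to 4.01e+07 fragments per library, but counts could not be recovered. All 40 genes had at least 1 FPKM in all 30 libraries, hence all were tested in every comparison. No member differed more than 2-fold between the 2 libraries of any group. The replicates that differed most were those of 4-factor day 4 (600 genes over 2-fold, r = 0.962) and 4-factor iPSCs (274 genes, r = 0.975). CT replicate 2 stood apart in its share of mitochondrially encoded mRNA, 2.03% against 5.77% to 8.12% in the other 9 removal libraries. Fibroblast markers summed to 3418 FPKM or more in every library before the iPSC stage and to 49.8 to 184 in iPSCs, where 10 pluripotency markers summed to 3546 to 4434. Exons of 11 members overlap an expressed gene on the other strand (Nop56 with Idh3b, Rrp9 with Parp3, Gnl3 with Pbrm1 and 8 more), and 2, Nop56 and Ncl, hold small RNA genes on the same strand; with the use of strand in counting not given in the sources used here, part of these values may belong to the partner.

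**Figure D1:**
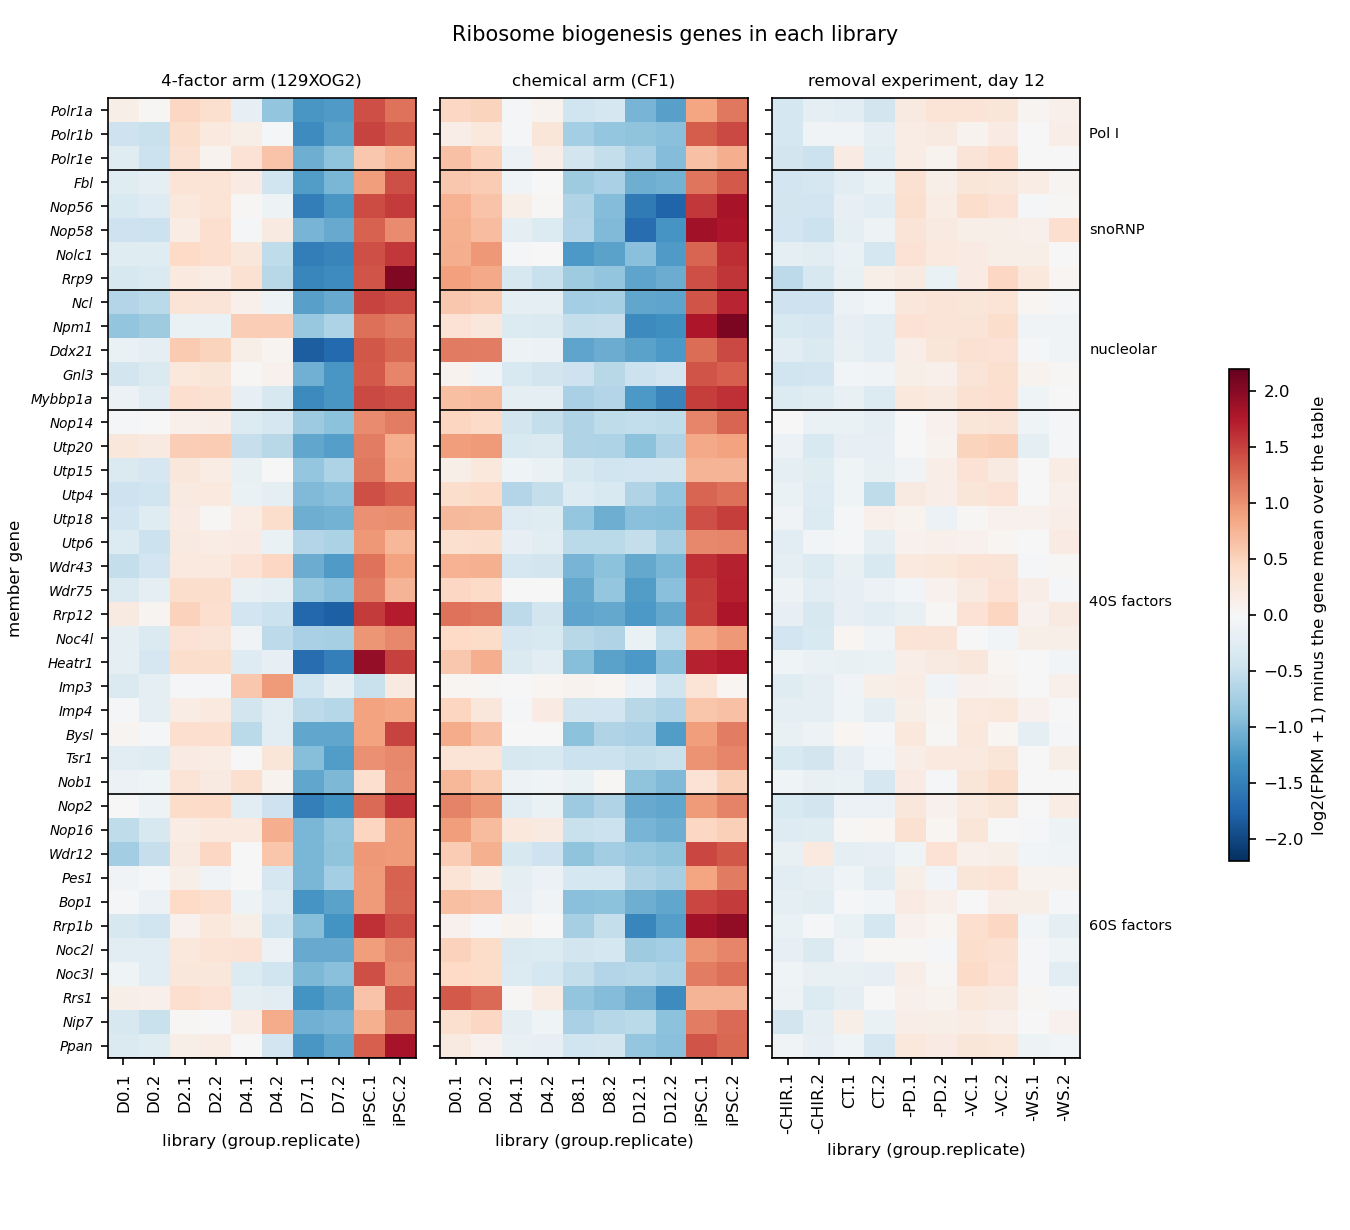
Level of the 40 members in each library, as log2(FPKM + 1) minus the mean of that gene over the 10 libraries of its table, with libraries on the x axis and genes, ordered by role, on the y axis; red is above and blue below the mean. The day 7 columns of the 4-factor arm and the day 12 columns of the chemical arm are blue for nearly all genes, the iPSC columns are red, and the removal experiment shows much smaller differences.

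In the 4-factor arm the genes were higher at day 2, dropped to their lowest at day 7 and were highest in iPSCs. The median member was at 19.6 and 19.97 FPKM at day 0, at 25.4 and 24.8 at day 2, at 21.9 and 22.3 at day 4, at 10.3 and 10.4 at day 7, and at 46.9 and 47.7 in iPSCs. Ranked by group mean, day 7 was the lowest of the 5 groups for 39 of 40 members, as it was for 19.1% of all genes tested, and iPSCs were the highest for 39, as for 40.7% of all genes. Before the iPSC stage, day 2 was highest for 32 members (22.7% of all genes) and day 4 for the other 8 (29.5%).

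To be called, a gene needed a Benjamini-Hochberg adjusted p under 0.05 over all genes tested together with a 2-fold or larger change, and only called genes are said to have risen or fallen. At day 2 no member was called higher (1.95% of all genes were), and the median log2 difference was 0.54. With no fold minimum 18 of 40 were higher, against 7.74% of all genes. That count was 2 or 3 with any of the 4 libraries left out. Ncl, nucleolin, an abundant protein of the nucleolus, had 73.3 and 75.8 FPKM at day 0 and 143 and 141 at day 2 (log2 difference 0.92 ± 0.12 SE, adjusted p = 1.39e-03), just under 2-fold. Wdr12, a partner of Pes1 and Bop1 in 60S assembly, had 0.95 ± 0.21 (adjusted p = 0.0177).

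At day 4 Npm1 and Imp3 rose against day 0, 2 of 40 where 9.44% of all genes were called higher, and none fell (7.41% of all genes). Npm1, nucleophosmin, the histone chaperone and assembly factor of the granular nucleolus (chr11:33152287-33163206, mm10), had 398 and 421 FPKM at day 0, 657 and 662 at day 2 and 1064 and 1066 at day 4. Day 4 was 1.38 ± 0.14 higher on the log2 scale (adjusted p = 1.26e-04), and the 3 days did not overlap. Imp3, a U3 snoRNP protein of the small-subunit processome (chr9:56937475-56938398), had 38.8 and 42.2 at day 0 and 73.8 and 94.1 at day 4 (1.02 ± 0.21, adjusted p = 4.60e-03). Without 4F day 0 replicate 1 or day 4 replicate 2 there was 1 call, without day 0 replicate 2 there were 4, and without day 4 replicate 1 there were 5; TPM gave 1 higher and 1 lower. From day 2 to day 4 Utp20, a large scaffold of the small-subunit processome, was the 1 member that fell (-1.10 ± 0.13, adjusted p = 4.52e-04), beside 4.76% of all genes; without day 4 replicate 1 there were 2, and TPM gave 3.

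At day 7, 13 members fell against day 0 and none rose, where 3.91% of all genes fell. The median log2 fold change was -0.81, against 0.02 over all genes tested. With no fold minimum 34 of 40 were lower (16.2% of all genes), and on the TPM scale, which sets all libraries to the same total, 23 fell. Rrp12, which helps both pre-40S and pre-60S particles leave the nucleus, had 9.77 and 8.81 FPKM at day 0, 12.3 and 11.2 at day 2, 6.00 and 5.81 at day 4 and 1.84 and 1.70 at day 7. Its day 7 libraries lay below all others of the arm, at -1.89 ± 0.13 against day 0 (adjusted p = 1.56e-05). Ddx21, the RNA helicase that links polymerase I with rRNA processing, had 39.2 and 37.6 at day 0 and 11.7 and 12.7 at day 7 (-1.58 ± 0.11, adjusted p = 1.80e-05). Utp20 (-1.40 ± 0.13, adjusted p = 1.03e-04) and Rrs1, an assembly factor that brings the 5S particle into the pre-60S subunit (-1.37 ± 0.21, adjusted p = 1.23e-03), followed them. The other 9 were Nop2, Polr1a, Heatr1, Nolc1, Bysl, Mybbp1a, Bop1, Nop56 and Rrp9.

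The calls at day 7 fell in every role: 1 of 3 polymerase I subunits, 3 of 5 snoRNP proteins, 2 of 5 nucleolar proteins, 4 of 16 small-subunit factors and 3 of 11 large-subunit factors. Npm1, back at 409.9 and 457 FPKM, and Imp3, at 35.8 and 41.6, were near their day 0 values (0.08, adjusted p = 0.707, and -0.07, adjusted p = 0.838). From day 4 to day 7, 26 members fell, against 4.63% of all genes, led by Ddx21 (-1.86 ± 0.11, adjusted p = 2.13e-05), Wdr43 (-1.55 ± 0.13, adjusted p = 1.15e-04), Nip7 (-1.54 ± 0.21, adjusted p = 1.12e-03) and Polr1e (-1.46 ± 0.16, adjusted p = 4.47e-04). Of 20 replication and mitosis genes 3 fell at day 7 against day 0 (median -0.30; 6 on the TPM scale), with a summed level of 590 and 617 FPKM beside 708 and 688 at day 0. Their part in the members' fall, and that of the mitochondrial share, 11.3% and 13.3% at day 7 against 5.08% and 5.35% at day 0, was not tested.

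In 4-factor iPSCs 36 of 40 members rose against day 0, where 22.2% of all genes rose, with a median of 1.39 against 0.14 over all genes. Ncl reached 324 and 315 FPKM (2.08 ± 0.12, adjusted p = 4.66e-07) and Npm1 1686 and 1611 (2.01 ± 0.14, adjusted p = 2.27e-06). Heatr1, a processome protein needed for rRNA transcription, went from 10.9 and 9.52 to 50.9 and 37.7 (2.00 ± 0.16, adjusted p = 4.05e-06). Rrp9, a U3-specific snoRNP protein, rose by 2.05 ± 0.29 (adjusted p = 2.05e-04). The members that were not called were Imp3 (0.12), Utp20 (0.75), Nob1 (0.82) and Rrs1 (0.88). Replication and mitosis genes were higher in the same libraries, with 13 of 20 called and a sum of 2077 and 2057 FPKM beside 708 and 688 at day 0; their part in the members' rise was not tested.

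Against day 7 the distance to iPSCs was larger: 39 members rose, where 23.9% of all genes did, with a median of 2.21. Rrp12 rose by 3.40 ± 0.13 (adjusted p = 3.95e-08), Heatr1 by 3.30 ± 0.16 (adjusted p = 1.53e-07), Rrp9 by 3.12 ± 0.29 (adjusted p = 1.15e-05) and Ddx21 by 3.08 ± 0.11 (adjusted p = 2.91e-08). Imp3, at 34.5 and 56.0 FPKM in iPSCs, was again the exception. Day 0 and day 7 are each used in several of these comparisons, which are therefore not independent of each other.

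In the chemical arm the genes were lower at each step and highest in iPSCs. The median member was at 28.7 and 27.0 FPKM at day 0, 14.98 and 14.95 at day 4, 10.7 and 11.0 at day 8, 9.43 and 9.62 at day 12, and 46.8 and 46.2 in iPSCs. The group mean was lower at each step from day 0 to day 12 for 31 of 40 members, against 12.7% of all genes tested. Day 12 was the lowest of the 5 groups for 35 members (24.4% of all genes), and iPSCs the highest for 35 (38.3%).

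Against day 0, 8 members fell at day 4, 25 at day 8 and 32 at day 12, and none rose at any of these days. The shares of all genes called lower were 8.08%, 12.4% and 15.5%. With no fold minimum the members lower were 37, 39 and 40 of 40, beside 28.5%, 35.6% and 38.6% of all genes, and the medians were -0.76, -1.18 and -1.58, with -0.06 over all genes at day 12. At day 4 the members furthest down were Rrp12 (-1.65 ± 0.10, adjusted p = 1.47e-06), Rrp9 (-1.29 ± 0.08, adjusted p = 1.18e-06), Utp20 (-1.26 ± 0.08, adjusted p = 1.87e-06) and Ddx21 (-1.24 ± 0.08, adjusted p = 1.26e-06). On the TPM scale 15 members fell at day 4.

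At day 12 Rrs1 showed the largest fall. It had 37.3 and 34.9 FPKM at day 0, 14.3 and 15.9 at day 4, 7.28 and 6.80 at day 8 and 6.09 and 4.77 at day 12. Each day lay below the one before it without overlap (-2.54 ± 0.10 at day 12, adjusted p = 6.99e-08). Nop56, a core protein of box C/D snoRNPs (chr2:130274430-130279313), had 87.3 and 79.3, 56.1 and 51.9, 31.7 and 26.0, and 16.7 and 14.4 at the same days (-2.35 ± 0.12, adjusted p = 3.09e-07). Rrp12 went from 18.4 and 17.9 to 2.56 and 2.91 (-2.36 ± 0.10, adjusted p = 1.22e-07), and had reached 2.79 and 2.90 by day 8. Ddx21 followed the same course, from 64.2 and 63.4 to 12.3 and 12.8 at day 8 and 12.11 and 11.3 at day 12 (-2.35 ± 0.08, adjusted p = 1.99e-08).

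The fall at day 12 took in all 3 polymerase I subunits (median -1.41), all 5 snoRNP proteins (-2.00), 4 of 5 nucleolar proteins (-1.73), 10 of 16 small-subunit factors (-1.34) and 10 of 11 large-subunit factors (-1.35). Polr1a, the largest catalytic subunit of polymerase I, went from 13.8 and 14.1 FPKM to 4.29 and 3.72. Npm1 stood at 504 and 484 at day 0, 279.8 and 284 at day 8 and 153 and 158 at day 12. At day 12, 8 members were not called, of which Gnl3, nucleostemin, a nucleolar GTPase of stem and dividing cells (-0.45), and Imp3 (-0.32, adjusted p = 0.0292) changed least. Imp3 had 42.4 and 41.8 FPKM at day 0, 43.7 and 42.5 at day 8 and 37.5 and 30.0 at day 12, while Imp4, its partner in the U3 snoRNP, fell (-1.01 ± 0.10).

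Between neighbouring days the steps were smaller. From day 4 to day 8 Nolc1, the chaperone of snoRNPs (-1.19 ± 0.13, adjusted p = 8.76e-05), Ddx21 (-1.01 ± 0.08, adjusted p = 8.07e-06) and Rrs1 (-1.0002 ± 0.10, adjusted p = 5.04e-05) fell, 3 of 40 beside 7.47% of all genes; the count was 5 on the TPM scale, 1 with median-ratio scaling and 2 without day 4 replicate 2. From day 8 to day 12 no member fell by the full rule (7.69% of all genes did), and 20 were lower by adjusted p alone, against 29.2% of all genes.

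In chemical iPSCs 8 members rose against day 0, where 21.1% of all genes rose, and none fell. Rrp1b, a nucleolar protein of 60S processing, had 8.65 and 7.71 FPKM at day 0, 2.33 and 2.88 at day 12 and 31.3 and 33.8 in iPSCs (1.87 ± 0.11 against day 0, adjusted p = 3.86e-07). Npm1 reached 1399 and 1700.1 (1.64 ± 0.09, adjusted p = 1.79e-07), Gnl3 145 and 138 (1.34 ± 0.08, adjusted p = 2.88e-07), and Polr1b rose by 1.20 ± 0.10 (adjusted p = 5.77e-06). The share of the 40 was near that of all genes, and on the TPM scale 3 were called; by adjusted p alone 32 were higher, against 41.9% of all genes. By adjusted p alone Rrs1, at 24.2 and 24.4, and Nop16, at 16.8 and 17.8, were below day 0 (-0.55 ± 0.10, adjusted p = 9.30e-04, and -0.33 ± 0.08, adjusted p = 5.57e-03), 2 of 40 beside 36.8% of all genes. Replication and mitosis genes rose in 11 of 20 cases, with a sum of 1905 and 1954 FPKM beside 921 and 914 at day 0, and their part was not tested here either.

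Against day 12, 39 members rose in chemical iPSCs, where 28.4% of all genes rose. The median was 2.13, and the values did not overlap for Nop56, which reached 153 and 182 FPKM (3.35 ± 0.12, adjusted p = 1.17e-08). Npm1 rose by 3.30 ± 0.09 (adjusted p = 1.63e-09), Nop58, the partner of Nop56, by 3.30 ± 0.14 (adjusted p = 3.32e-08) and Rrp1b by 3.22 ± 0.11 (adjusted p = 7.96e-09). Imp3 (0.46) was not called.

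The difference between the arms was tested as an interaction over the 20 libraries. Mouse stock, method and table differ together between the arms and cannot be told apart. From day 0 to day 4, 19 members changed less upward or more downward in the chemical arm and none the other way, where 13.2% of all genes were called in that direction. Npm1 rose 1.38 in the 4-factor arm and had -0.60 in the chemical arm, a difference of -1.97 ± 0.15 (adjusted p = 5.50e-08). Wdr12 and Wdr43, a processome subunit, differed by -2.01 ± 0.24 (adjusted p = 6.27e-06) and -2.01 ± 0.14 (adjusted p = 3.75e-08). Replicates of 4-factor day 4 were the least alike of all groups, and the count was 16 to 19 with any library left out.

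From day 0 to iPSCs, 9 members differed, all with the lower change in the chemical arm, where 4.94% of all genes were called in that direction. Nop2, an rRNA methyltransferase of 60S assembly, had 25.4 and 23.5 FPKM at day 0 and 61.5 and 78.3 in iPSCs of the 4-factor arm, and 56.6 and 52.3 and then 50.9 and 56.5 in the chemical arm. Its groups overlapped in the chemical arm and not in the 4-factor arm (interaction -1.49 ± 0.16, adjusted p = 1.19e-05). Nop16 (-1.48 ± 0.24, adjusted p = 3.74e-04) and Rrs1 (-1.43 ± 0.24, adjusted p = 5.16e-04) differed as much, and Rrp9, Ddx21, Nolc1, Ncl, Nob1 and Rrp12 were the others. The 2 tables were normalised separately, so levels are given side by side only.

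**Figure D2:**
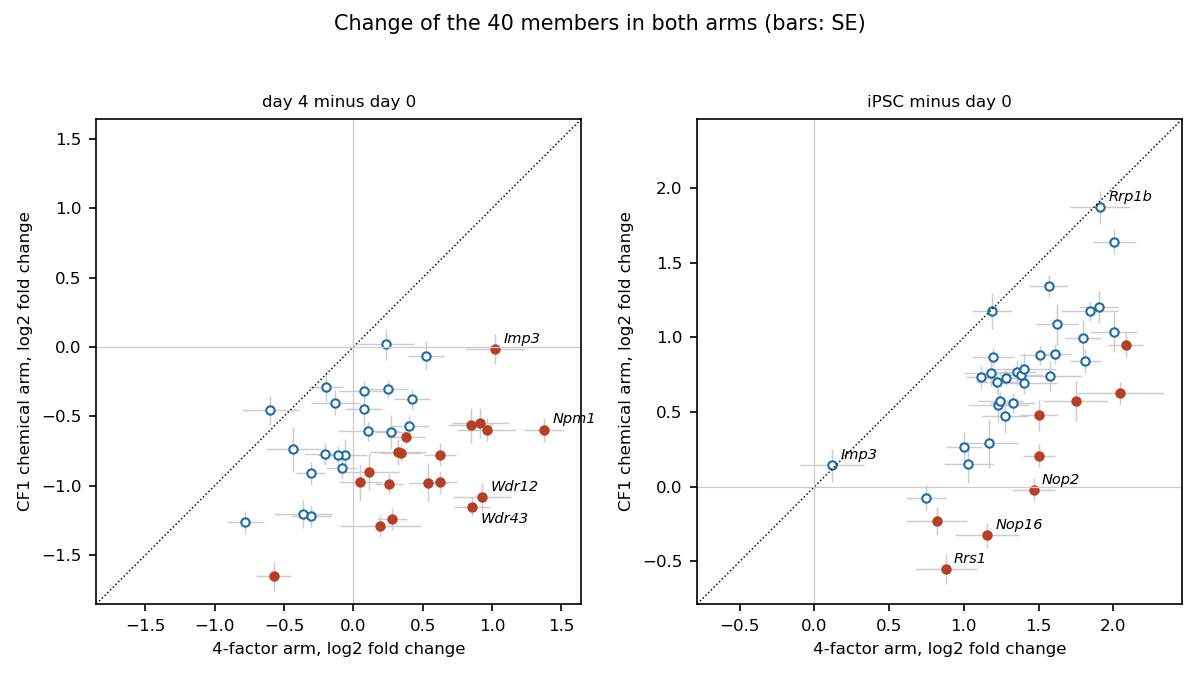
Log2 fold change of each of the 40 members against day 0 in the 4-factor arm (x axis) and the chemical arm (y axis), at day 4 on the left and in iPSCs on the right; bars are standard errors, filled points were called in the test of the difference, and the dotted line marks equal change. The 19 filled points at day 4 and 9 in iPSCs lie below the line, and Imp3 sits near 0 in iPSCs of both arms.

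Myc itself was set beside the members. In the chemical arm it had 54.9 and 51.7 FPKM at day 0, 17.4 and 18.4 at day 4, 10.1 and 10.9 at day 8, 1.02 and 1.58 at day 12 and 3.99 and 3.89 in iPSCs. Each day lay below the one before it without overlap, day 12 was -4.57 ± 0.11 against day 0, the step from day 4 to day 8 was under 2-fold (-0.72) and that from day 8 to day 12 was called (-2.33). Myc was low in iPSCs, where the members were highest. Over the 8 chemical libraries before the iPSC stage, Pearson's r between log2 levels of Myc and a member had a median of 0.878 and was at least 0.8 for 36 of 40, against 17.5% of all genes; these libraries share the time course. With the 2 iPSC libraries included the median r was 0.261 and no member reached 0.8.

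In the 4-factor arm Myc had 32.3 and 32.5 FPKM at day 0, 25.2 and 22.5 at day 2, 6.47 and 3.39 at day 4, 11.0 and 10.4 at day 7 and 9.73 and 12.17 in iPSCs. The members were highest of these days at day 2 or day 4 and, for 39 of 40, lowest at day 7, whereas Myc was lowest at day 4 (-2.55 ± 0.22 against day 0) and rose from there to day 7 (1.03, adjusted p = 0.0097). Median r was 0.214 over the 8 libraries without iPSCs and 0.0109 over all 10, and no member reached 0.8. With the handling of lentiviral c-Myc reads not given in the sources used here, the total of Myc mRNA in this arm is uncertain.

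Mycn, the paralog of Myc that pluripotent cells use, had 32.6 and 39.4 FPKM in 4-factor iPSCs and 32.5 and 31.7 in chemical iPSCs, and 3.29 or less in every other library of both arms. It rose by 4.33 ± 0.16 (adjusted p = 3.3e-08) and 4.37 ± 0.17 (adjusted p = 2.4e-08) against day 0. Before the iPSC stage its course differed from the members': Mycn rose at chemical day 4 (1.31 ± 0.17, adjusted p = 1.4e-04), when 8 members fell. Its median r with the members was 0.593 over the 10 libraries of the 4-factor arm and 0.741 over those of the chemical arm, but -0.927, with 0 of 40 above 0, and 0.098 over the 8 libraries of each without iPSCs. Over all genes the medians were 0.123, 0.0712, -0.0311 and 0.170 in the same order. Of the members 0 and 8 reached 0.8 over the 10 libraries, against 16.8% and 21.8% of all genes. In the 4-factor libraries without iPSCs, 48.4% of all genes were above 0, and Mycn was at 0.246 to 2.36 FPKM. Mxd4, a Max partner that represses Myc's targets, ran the other way from the members. It had 6.90 and 5.87 FPKM at day 0 of the chemical arm and 35.1 and 33.1 at day 12 (2.25 ± 0.08), 20.5 and 19.8 at day 0 of the 4-factor arm and 35.7 and 37.2 at day 7, and less than 1 in all 4 iPSC libraries. Mxi1, of the same family, was highest in the chemical arm on day 8, at 18.5 and 18.9 FPKM. It did not run against the members at every stage. In chemical iPSCs it had 14.1 and 16.2 against 3.38 and 3.22 at day 0 (1.91 ± 0.08, adjusted p = 4.0e-08). In 4-factor iPSCs it had 14.0 and 13.6 against 6.67 and 6.90 at day 0, a difference under 2-fold (0.93). On 4-factor day 4 it had 31.9 and 25.2, and on day 7 24.4 and 23.8, a difference that was not called (-0.22, adjusted p = 0.224). Mxd3 was below day 0 at chemical day 12 (-2.77 ± 0.12), as the members were. It was also below day 0 in 4-factor and chemical iPSCs (-1.18 ± 0.14 and -1.44 ± 0.12). Max stayed between 22.1 and 38.6 in both arms.

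**Figure D3:**
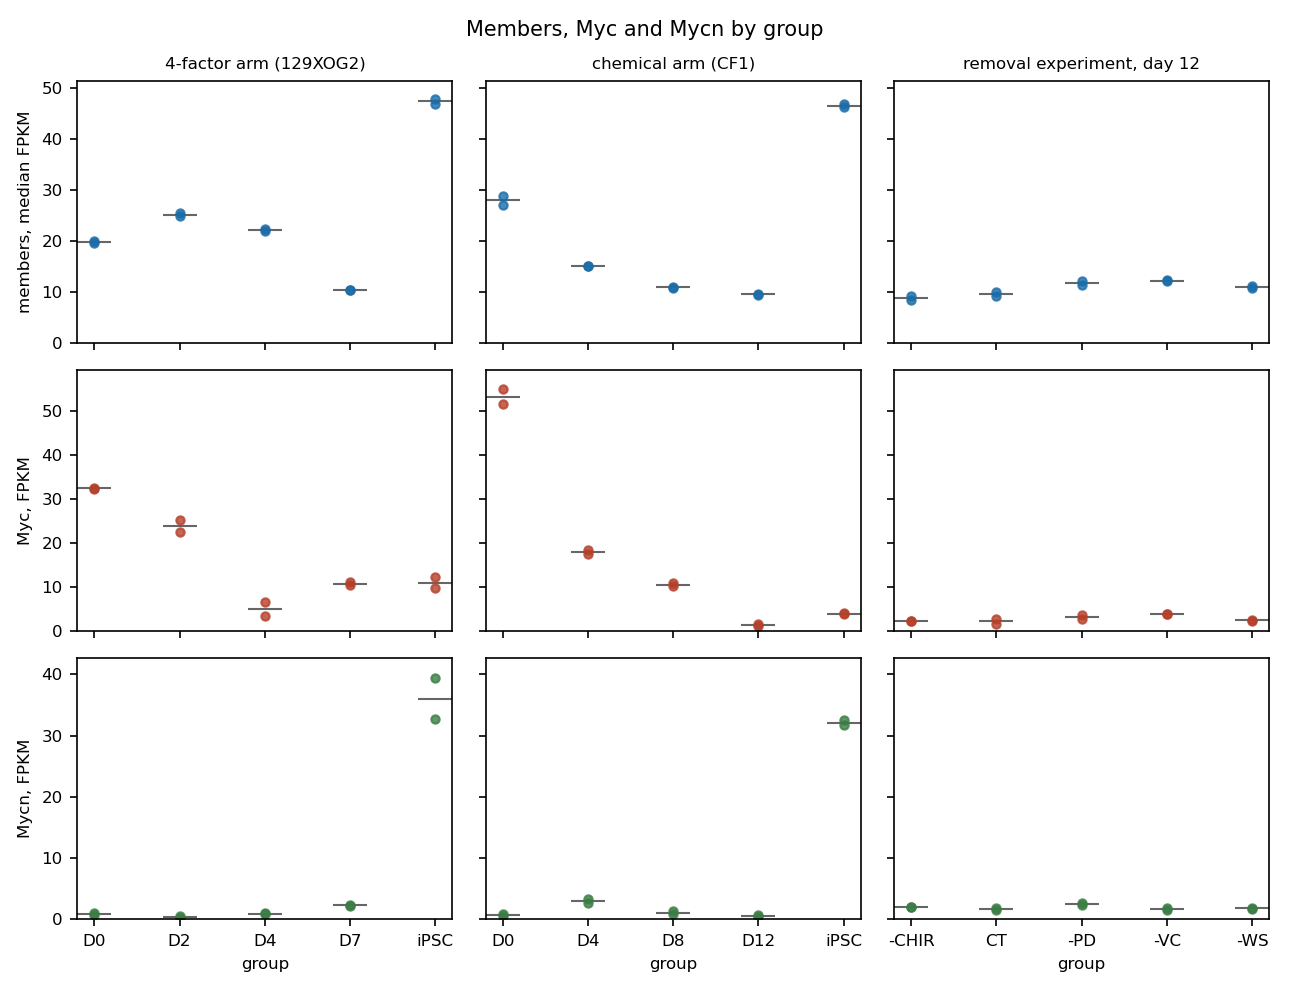
Median FPKM of the 40 members (top), Myc (middle) and Mycn (bottom) by group in the 4-factor arm, the chemical arm and the removal experiment; points are libraries and lines the mean of the 2. Myc and the members are both lower at day 8 than at day 0 of the chemical arm, after which Myc falls and the median member moves from 10.7 and 11.0 to 9.43 and 9.62 FPKM, day 4 of the 4-factor arm has the lowest Myc with the members still near 22 FPKM, and in iPSCs the members and Mycn are high while Myc is at 3.89 to 12.17.

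Other assembly and snoRNP genes were lower at chemical day 12 as well, and few ribosomal proteins were called. The lists are given against day 0 of the chemical arm at day 12, where 15.5% of all genes were called lower. Among 64 other assembly factors 35 fell and none rose (median -1.04), led by Wdr36 (-2.07) and Rcl1 (-1.81). Of 13 other snoRNP proteins and factors 8 fell (median -1.07), with Dkc1, the pseudouridine synthase of H/ACA snoRNPs, at -2.51 and Nhp2 at -1.79. Of 12 other polymerase I subunits and initiation factors 3 fell (median -0.56), among them Twistnb (-1.35) and Cd3eap (-1.22).

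Of 79 cytosolic ribosomal proteins 2 rose, Rps28 (1.28) and Rps27 (1.25), and 1 fell; their median was -0.06 by FPKM, -0.15 by TPM and 0.14 with median-ratio scaling, so its direction changes with the scaling. The 7 snoRNA host genes had no call (median -0.11, and 0.09 with median-ratio scaling; Snhg6 -0.38 and Snhg5 -0.35). Mitochondrial ribosomal proteins (11 of 49 lower, median -0.68, but 3 with median-ratio scaling and 17 by TPM; Mrpl21 -1.53, Mrpl3 -1.36) and cytosolic translation factors (9 of 28 lower, median -0.84; Eif5a -1.58, Eif2b3 -1.54) lay between.

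Of other growth genes known as Myc targets, 18 of 20 fell (median -1.65), with Tfrc, the transferrin receptor, at -4.36 and Bcat1 at -2.63. All 20 replication and mitosis genes fell (median -3.60), with Top2a at -5.12 and Ccnb1 at -5.06, and their summed level went from 921 and 914 FPKM at day 0 to 150 and 151 at day 8 and 76.2 and 77.5 at day 12. Of 17 mTOR pathway genes 2 rose and 1 fell (Sesn3 3.89, Deptor -1.38), and of 14 p53 targets 3 rose and 1 fell (Trp53inp1 2.02, Fas 2.00). The share of all genes called higher at day 12 is not given here. Rises among these lists, the marker lists and ribosomal proteins were therefore not set against it, and may be near it. Marker lists moved as well: 7 of 12 fibroblast markers rose and 1 fell (Dcn 4.60, Lum 4.48; sums 3508 and 3418 FPKM at day 0, 15426 and 15068 at day 12), 7 of 8 epithelial markers rose and 1 fell (Krt8 3.24, Epcam 3.24), 4 of 6 extra-embryonic endoderm markers rose (Sox17 2.78, Sparc 1.70), 2 of 10 pluripotency markers rose (Dppa5a 1.15, Pou5f1 1.10) and 6 of 7 macrophage markers fell (Tyrobp -3.10, Fcer1g -3.00). The 10 pluripotency markers were near the floor at day 12, with sums of 5.16 and 2.99 FPKM, beside 4189 and 4053 in chemical iPSCs. In day 12 replicate 1, 8 of the 10 were below 1 FPKM, and in replicate 2 all 10 were. No fibroblast marker was at 0 in any library of the arm. The mitochondrial share went from 4.77% and 5.58% to 12.05% and 13.7%. The part of dividing cells, of marker-bearing cells and of this share in the members' fall was not tested.

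The same lists were read at other stages. At 4-factor day 7, where 3.91% of all genes fell, 5 of 64 other assembly factors and 7 of 20 growth genes did (medians -0.45 and -0.85), and 15 and 12 on the TPM scale; 1 of 79 ribosomal proteins rose. At 4-factor day 4, where 9.44% of all genes rose, 25 of 79 ribosomal proteins rose with none lower (median 0.75, and 0.50 on the TPM scale with 13 called), when 2 members rose. In 4-factor iPSCs against day 0, 48 of 64 other assembly factors rose (median 1.30; 22.2% of all genes) and 0 of 79 ribosomal proteins were called (median 0.51). In chemical iPSCs, where 21.1% of all genes rose, 16 other assembly factors did (median 0.61; 9 on the TPM scale), a share near that of all genes, and 27 ribosomal proteins did (median 0.76; 17 on the TPM scale).

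**Figure D4:**
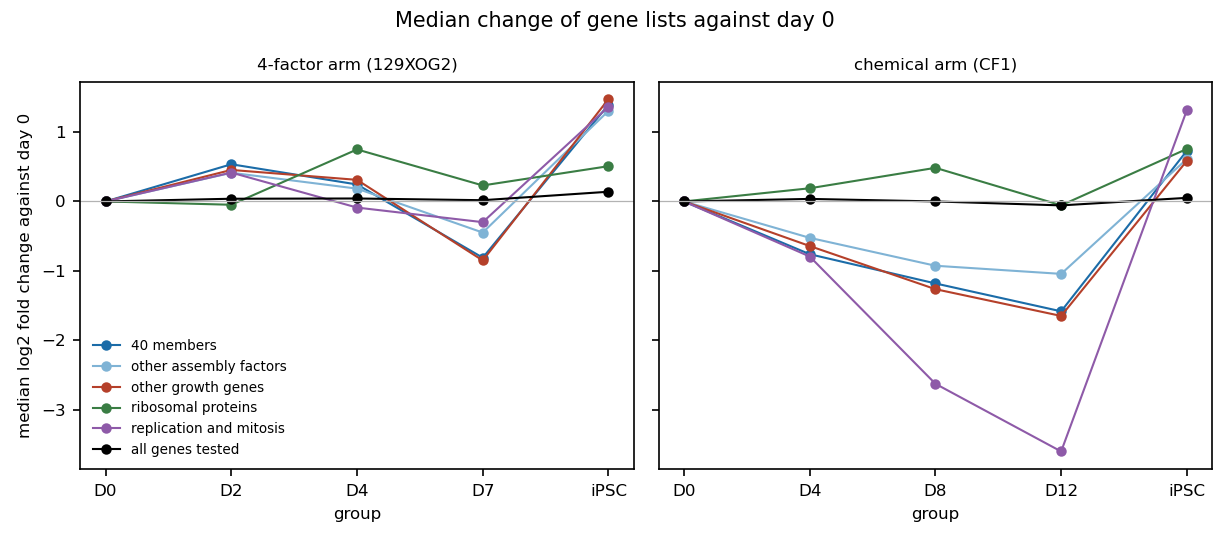
Median log2 fold change against day 0 (y axis) of the 40 members, 64 other assembly factors, 20 other growth genes, 79 ribosomal proteins, 20 replication and mitosis genes and all genes tested, by group in the 4-factor arm (left) and the chemical arm (right). In the chemical arm the members and growth genes reach -1.58 and -1.65 at day 12 while ribosomal proteins stay near 0 and replication and mitosis genes reach -3.60.

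In the removal experiment no member passed the full rule in any of 4 comparisons with CT. The shares of all genes called were 0.971% without CHIR, 1.27% without PD, 2.33% without VC and 0.91% without WS. By adjusted p alone, 27 of 40 members were higher without VC (24.3% of all genes), 16 without PD (10.3%) and 3 without WS (5.4%), and 3 were lower without CHIR (3.71%). Median log2 differences were 0.39, 0.28, 0.15 and -0.09, beside 0.13, 0.08, 0.06 and 0.03 over all genes, in the order VC, PD, WS and CHIR. All 4 comparisons share the 2 CT libraries.

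Without VC, Utp20 had 10.0 and 10.3 FPKM against 5.95 and 5.91 in CT (0.69 ± 0.09, adjusted p = 1.02e-03), and Rrp1b 4.15 and 4.43 against 2.57 and 2.04 (0.68 ± 0.11, adjusted p = 2.22e-03). Polr1a had 5.41 and 5.26 against 3.35 and 2.90 (0.62 ± 0.09, adjusted p = 1.82e-03), and Npm1 216 and 233 against 156 and 151 (0.54 ± 0.07, adjusted p = 5.80e-04). None of these groups overlapped, and both libraries without VC lay above both CT libraries for 35 members, against 48.3% of all genes. The members higher by adjusted p were 1 of 3 polymerase I subunits, 3 of 5 snoRNP proteins, all 5 nucleolar proteins, 11 of 16 small-subunit and 7 of 11 large-subunit factors. The count was 22 to 26 with any of the 4 libraries left out, and 25 without CT replicate 2.

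Without PD, Polr1a had 4.97 and 5.35 FPKM (0.58 ± 0.09, adjusted p = 4.95e-03), Nolc1 15.4 and 14.3 against 10.9 and 9.002 in CT, and Npm1 219.7 and 215 (0.50 ± 0.07, adjusted p = 1.68e-03). Both libraries lay above both CT libraries for 33 members (37.1% of all genes), and 4 of 5 snoRNP proteins and 4 of 5 nucleolar proteins were higher by adjusted p. The 16 became 8 on the TPM scale and without either of the 2 libraries lacking PD, and 11 without CT replicate 2. Without CHIR, Gnl3 (20.3 and 20.4 against 26.4 and 26.3), Ncl (32.5 and 32.4 against 41.0 and 42.7) and Noc4l, a 40S export factor (6.96 and 7.39 against 9.94 and 9.04), were lower, each by -0.36 on the log2 scale (adjusted p = 5.68e-03, 5.68e-03 and 0.0167). That count was 0 without either library lacking CHIR, 7 without CT replicate 1 and 5 without CT replicate 2. Both libraries lacking CHIR lay below both CT libraries for 20 members (21.3% of all genes) and above them for 4 (28.5%). Both libraries lacking WS lay above both CT libraries for 26 members (32.7% of all genes) and below them for 1 (18.9%). Without WS the 3 were Polr1a (0.42 ± 0.09, adjusted p = 0.0271), Nop58 (0.39 ± 0.10, adjusted p = 0.0414) and Fbl, fibrillarin, the snoRNP methyltransferase (0.31 ± 0.08, adjusted p = 0.0490); none remained on the TPM scale or without WS replicate 2, 1 remained with median-ratio scaling or without CT replicate 2 or WS replicate 1, and 8 were found without CT replicate 1.

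Myc in the removal experiment was near its lowest values of the study, at 2.77 and 1.61 FPKM in CT, 2.28 and 2.19 without CHIR, 2.76 and 3.55 without PD, 3.92 and 3.74 without VC and 2.31 and 2.49 without WS. It was higher without VC by adjusted p alone (0.62 ± 0.17, adjusted p = 0.020). Over the 10 libraries the median r of a member with Myc was 0.711, and 12 of 40 reached 0.8 against 8.14% of all genes. Ribosomal proteins were higher by adjusted p in 68 of 79 cases without VC and 34 without PD, with 5 and 0 passing the full rule (medians 0.58 and 0.41). Replication and mitosis genes were higher by adjusted p in 11 of 19 cases without PD and in none without VC, where 1 was lower. Fibroblast markers summed to 22323 and 29041 FPKM in CT, 15449 and 14919 without PD and 11734 and 11916 without VC, and the part of these shifts in the members' values was not tested.

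**Figure D5:**
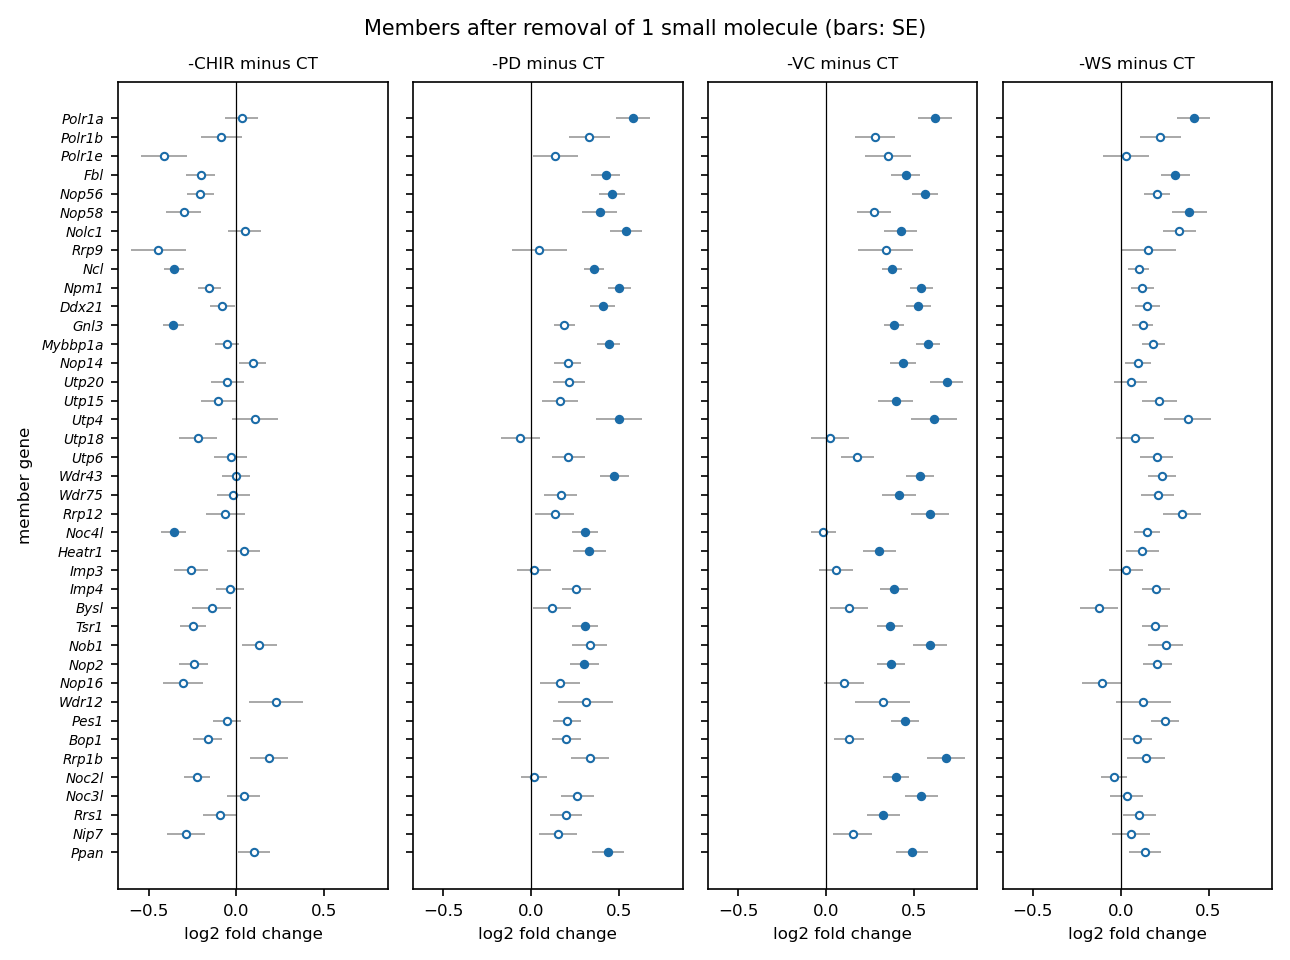
Log2 difference from CT of each member after removal of CHIR, PD, VC or WS, with standard errors; filled points have an adjusted p under 0.05. The filled points lie right of 0 without PD (16), VC (27) and WS (3) and left of 0 without CHIR (3), and none reaches 1, the 2-fold mark.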

How the data were processed

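Total RNA of 30 libraries, 2 in each of 15 groups, was sequenced in 150 bp reads on an Illumina NovaSeq, per the labels' protocols. The submitters' processing notes name fastp 0.20.1, HISAT2 2.2.1, StringTie 2.0 and build mm10; the annotation and the strand setting are not given in the sources used here. The authors deposited FPKM per gene in 3 tables of 10 libraries, with 55401 identifiers each, of which 99.5% matched a GENCODE M21 symbol. FPKM makes a library's values relative, so a few abundant genes can shift all others. Replicate libraries were not identical in any group. The precision is limited by 2 libraries a group; the depth implied by the lowest steps (3.45e+07 to 4.01e+07) is approximate, since no more than 13.7% to 25.3% of the low values matched a step, with 1% tolerance.

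Values were set as log2(FPKM + 1), genes reaching 1 FPKM in 2 or more libraries of the table were kept (14761 in the 4-factor arm, 15442 in the chemical arm, 13290 in the removal experiment, 16205 over both arms), and each table was fitted with 1 coefficient per group in limma 3.58.1 (R 4.3.3, lmFit, contrasts.fit, eBayes with trend), two-sided, with Benjamini-Hochberg adjustment over all genes tested. Log2 changes on this scale understate those of low genes. The fit was tested on simulated data. Errors are standard errors unless stated. Replicate numbers showed no consistent pairing of the libraries, which does not exclude one. Residuals were correlated above 0.1 in 4 of 10 group pairs of the 4-factor arm, where r ran from -0.210 to 0.246. None of 10 pairs in either other table passed 0.1. Replicate numbers were therefore left out of the models.

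The 40 members and the gene lists were chosen with earlier results of these data known. Any member or gene of the Myc network could be named; among called members of a comparison, statistics were given for 4 rises and 4 falls, the largest, for the 3 largest of each direction between arms, and for the 2 largest changes of each other list at chemical day 12. Statistics of members that were not called, named as exceptions or by adjusted p alone, were chosen after their values were seen. The lists were those of other polymerase I, assembly and snoRNP factors, snoRNA hosts, cytosolic and mitochondrial ribosomal proteins, translation factors, growth genes, mTOR and p53 genes, replication and mitosis genes, and markers of 5 cell types. Alternatives were a pseudocount of 0.1, no filter, the TPM scale, median-ratio scaling, a replicate block, no fold minimum, and each library left out in turn. Promoters came from RefSeq tables.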

Additional observations from a re-analysis of the deposited data

Results flagged for a closer look

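The change against day 0 differed between the arms for several members by the test of the difference itself, with method, mouse stock and table not separable. At day 4, 19 members lay lower in the chemical arm, with differences of -2.01 for Wdr12, -2.01 for Wdr43 and -1.97 for Npm1. In iPSCs, 9 members lay lower, with -1.49 for Nop2, -1.48 for Nop16 and -1.43 for Rrs1.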

How the results depend on the processing

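For the called members with the largest changes of each comparison, no direction changed under the alternatives run. Direction was not followed for other members, which include those not called and all members named in the removal experiment. The medians of ribosomal proteins and snoRNA host genes at chemical day 12 did change direction, as did the median of all genes in several comparisons. With no fold minimum the members higher were 18 at 4-factor day 2, 14 at day 4 (with 4 lower), 32 in chemical iPSCs (with 2 lower) and, against CT, 16 without PD, 27 without VC and 3 without WS; the members lower were 34 at 4-factor day 7, 15 from day 2 to day 4 (with 2 higher), 37 and 39 at chemical days 4 and 8, 30 from day 4 to day 8 (with 1 higher), 20 from day 8 to day 12, 3 without CHIR, and 34 at day 4 and 31 in iPSCs between the arms. For some of these counts no share of all genes is given beside them. They are those at 4-factor day 4, from 4-factor day 2 to 4, from chemical day 4 to 8 and between the arms. These show only how the count moves with the rule, and are not read as a result about the members. A pseudocount of 0.1 gave 1 and 4 higher at 4-factor days 2 and 4. It gave 2 and 5 lower from 4-factor day 2 to 4 and chemical day 4 to 8. The TPM scale gave 1 higher and 1 lower at 4-factor day 4, 23 lower at day 7, 3 lower from day 2 to 4, 15 lower at chemical day 4, 5 lower from day 4 to 8 and 3 higher in chemical iPSCs; median-ratio scaling gave 1 higher at 4-factor day 4 and 1 lower from chemical day 4 to 8. By adjusted p alone, added after seeing the data, the 18 at 4-factor day 2 became 11 without a filter, on the TPM scale and with median-ratio scaling, the 16 without PD became 8 on the TPM scale, and the 3 without WS became 0 without a filter, 0 on the TPM scale and 1 with median-ratio scaling. The replicate block, for which no consistent pairing was seen, moved no count beyond 1.5 times (13 lower at 4-factor day 7, 32 lower at chemical day 12 and 15 higher by adjusted p alone at 4-factor day 2).

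With 1 library left out, the lone library of its group is assumed to vary like the other groups. The counts then ran from 1 to 5 higher at 4-factor day 4, 11 to 13 lower at day 7, 32 to 37 higher in iPSCs, 1 to 2 lower from day 2 to 4, 18 to 27 lower from day 4 to 7 and 39 to 39 higher from day 7 to iPSCs. In the chemical arm they ran from 8 to 10, 23 to 26 and 29 to 34 lower at days 4, 8 and 12, 8 to 10 higher in iPSCs, 2 to 4 lower from day 4 to 8 and 39 to 39 higher from day 12 to iPSCs. Between the arms they ran from 16 to 19 and from 7 to 10 lower. By adjusted p alone they ran from 2 to 3 at 4-factor day 2, 0 to 7 lower (0 to 1 higher) without CHIR, 8 to 19 without PD, 22 to 26 without VC and 0 to 8 without WS. Of the values of single genes, 211 kept their side of the threshold with a library left out and 5 lost the call; under the other settings 283 kept it and 5 lost it.

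The TPM scale moved the median of all genes from 0.02 to -0.13 at 4-factor day 7, 0.13 to 0.00 without VC and 0.05 to -0.15 in chemical iPSCs, among 10 comparisons with a shift over 0.1; median-ratio scaling did so in 4. Among all genes called, the share that was higher moved by over 10 points: from 53.04% to 42.0% at 4-factor day 2, 56.0% to 38.9% at day 4, 61.4% to 48.1% at day 7, 56.4% to 44.7% from day 2 to 4, 39.2% to 50.4% from day 4 to 7, 52.0% to 41.6% in chemical iPSCs, and, against CT, 62.1% to 43.8% without PD, 39.5% to 20.8% without VC and 48.8% to 37.0% without WS; median-ratio scaling moved it from 39.6% to 51.5% at chemical day 12, 62.1% to 50.0% without PD and 39.5% to 20.9% without VC.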

Other observations

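As a share of all FPKM in a library, the 40 genes summed to 0.360% and 0.363% at day 0 of the 4-factor arm, 0.216% and 0.230% at day 7 and 1.04% and 1.00% in iPSCs. In the chemical arm the share was 0.485% and 0.475% at day 0, 0.152% and 0.148% at day 12 and 0.766% and 0.865% in iPSCs; Npm1 alone made up 153 of 626 and 158 of 608 FPKM of this sum at day 12.

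Others of the Myc network had stages of their own. Mycl, the third Myc paralog, had 0.279 and 0.498 FPKM at chemical day 8 and 4.52 and 4.13 in chemical iPSCs, and 0.155 and 0.222 at 4-factor day 7 and 5.92 and 5.68 in 4-factor iPSCs. Mxd3 was listed at 0 in both chemical day 12 libraries, after 5.95 and 5.71 at day 0, whereas at 4-factor day 7 it had 8.12 and 9.05.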
